A study of Mus musculus with 2 samples.

Results

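The measurements below concern 10 genes of the type I interferon response, chosen by name from the 32285 genes in the deposited tables: Isg15, Usp18, Ifit1, Ifit2, Ifit3, Rsad2, Oasl2, Irf7, Bst2 and Ifitm3. All 10 were present and all were followed in every cell class. Mammary glands of adult female mice (wild type by the study's methods), labelled as 9 to 10 weeks old where the protocol says 8 to 10, gave 2 droplet libraries, 1 per group. The Ctrl library came from control mice and the CL library from mice given clodronate liposomes, particles that macrophages ingest and that then kill them. Sorted CD45+ cells and CD31-TER119- cells went into both, and neither the number of mice behind a library nor the proportion of the sorted fractions was given in the sources used here. With 1 library per group no test of the treatment was possible, no p-value is given, and every interval below is a 95% interval for counting error alone.

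In all, 118743318 UMIs (unique molecular identifiers, 1 per captured RNA molecule) were counted in Ctrl and 155765480 in CL, from which 5937 and 8826 cells were retained, with medians of 11351 and 10337 UMIs per cell. The labels were checked against 8 macrophage markers. Their summed level over all retained cells was 80.7 CPM in Ctrl and 232 in CL (CPM, the UMIs of a gene relative to all UMIs of the same cells), so the markers were higher in the library labelled as macrophage-depleted. Without Lyz2 the log2 ratio of that sum was still 0.47. The cells of the cluster with high C1q genes made up 0.674% of Ctrl and 0.487% of CL, with exact intervals of 0.482% to 0.916% and 0.353% to 0.656% that overlap, whereas an unnamed cluster led by Lyz2, S100a9 and S100a8 held 19 cells in Ctrl and 211 in CL. Ctrl and CL below are these labels. Of the barcodes retained, 12 occurred in both libraries. The 5 markers of plasmacytoid dendritic cells, which are known for making type I interferon, came to 0.813 CPM in Ctrl and 2.41 in CL.

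Type I interferons are secreted when a cell senses foreign nucleic acid. They bind a receptor made of IFNAR1 and IFNAR2, whose kinases activate a factor that contains IRF9 and binds the interferon-stimulated response element (ISRE) in the promoters of target genes. Type III interferons act through a different receptor on the same factor, mostly in epithelia. Interferon gamma, the type II interferon, acts mainly on another element, named GAS. In the mammary gland the epithelium has a contractile basal layer and an inner luminal layer of hormone-responsive and milk-producing cells.

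The promoter sequences are shown because this element is known as a regulatory input of such genes. RefSeq promoters on GRCm38.p6, covering 250 bases before the start and 50 after it, were found for 9 of the 10 genes, and Usp18 had none. An ISRE core, taken as GAAA, any 2 bases and GAAA, or on the other strand TTTC, any 2 bases and TTTC, stood in the 250 upstream bases of 5 of the 9 genes. Over the same upstream length it stood in 2.98% of 32851 promoters and in 3.46% of 27025 genes. The upstream stretches of these 5 genes are printed with the matches in capitals, where overlapping matches run together:
Isg15: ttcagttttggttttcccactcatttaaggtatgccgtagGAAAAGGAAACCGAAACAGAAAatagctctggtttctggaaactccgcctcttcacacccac
Ifit1: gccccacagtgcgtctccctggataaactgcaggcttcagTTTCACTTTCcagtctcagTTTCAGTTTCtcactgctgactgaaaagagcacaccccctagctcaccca
Ifit3: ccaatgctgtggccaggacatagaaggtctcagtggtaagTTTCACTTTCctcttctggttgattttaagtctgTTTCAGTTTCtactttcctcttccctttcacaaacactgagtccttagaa
Rsad2: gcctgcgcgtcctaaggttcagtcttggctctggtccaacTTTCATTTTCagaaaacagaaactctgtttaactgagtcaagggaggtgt
Bst2: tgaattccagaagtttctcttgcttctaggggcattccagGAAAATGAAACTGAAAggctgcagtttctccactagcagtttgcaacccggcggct

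These stretches lie at chr4:156200835-156200936 on the minus strand (Isg15), chr19:34640745-34640853 on the plus strand (Ifit1), chr19:34583333-34583456 on the plus strand (Ifit3), chr12:26456523-26456612 on the minus strand (Rsad2) and chr8:71537547-71537642 on the minus strand (Bst2). The match nearest to the start ended 56 bases before it in Isg15, 75 in Ifit1, 112 in Ifit3, 110 in Rsad2 and 114 in Bst2. The GAS letters, TTC, any 3 bases and GAA, which read alike on both strands, stood upstream of 2 of the 9 genes (Ifit2 and Bst2) and in 7.02% of all promoters. Ifit2, Irf7, Oasl2 and Ifitm3 had no match to the ISRE core in this window, which says only that these letters were not there.

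In the GENCODE M21 annotation of GRCm38, Isg15 lies at chr4:156199424-156200818, Usp18 at chr6:121245906-121270917, Rsad2 at chr12:26442746-26456452, Oasl2 at chr5:114896936-114912234 and Bst2 at chr8:71534255-71537456. The 3 Ifit genes are neighbours on the plus strand of chromosome 19, Ifit2 at chr19:34550694-34576419, Ifit3 at chr19:34583531-34588731 and Ifit1 at chr19:34640871-34650009. Irf7 (chr7:141262706-141266481) and Ifitm3 (chr7:141009586-141010770) both lie on the minus strand of chromosome 7. Of the 90-base windows in the last 500 transcript bases of Ifit3, 6.57% were identical to windows of its neighbour Ifit3b, so reads of that gene may have been split between the copies. The other 9 genes shared no such window.

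Cells were grouped into classes from marker genes. The 10 genes and the other genes of the interferon lists used below were left out of the clustering, but no further genes were. Of the classes, 7 had at least 20 cells in each library. These were basal-like cells (408 in Ctrl and 444 in CL), hormone-responsive luminal-like cells (2165 and 2619), secretory-lineage luminal-like cells (2613 and 3896), fibroblast-like cells (254 and 271), endothelial-like cells (54 and 59), macrophage-like cells (40 and 43) and T and NK-like cells (213 and 735). Each class held its own markers above the level over all cells, by least in the hormone-responsive class, which made up much of each library (7498 CPM of its markers in Ctrl against 4246 over all cells). Basal markers in basal-like cells of Ctrl were 20280 CPM against 1036 over all cells. The macrophage-like cells also held markers of the secretory lineage, at 5388 and 4921 CPM, and basal markers at 696 CPM in Ctrl and 41.6 in CL. Endothelial-like cells held hormone-responsive markers at 347 and 684 CPM and secretory-lineage markers at 1605 and 2200 CPM (log2 ratio 0.46, 0.29 to 0.62). Secretory-lineage markers were 451 and 765 CPM in fibroblast-like and 381 and 598 CPM in T and NK-like cells. The part of such RNA in the ratios of these classes was not tested. Endothelial-like cells were present although the sort was to remove CD31+ cells. Different clusters made up the hormone-responsive class in the 2 libraries: a cluster led by Gpx3 and Aoc1 held 891 of its cells in Ctrl and 59 in CL, and one led by Fgb and Upk3a held 330 and 1394. Droplets of 100 to 300 UMIs, taken as a measure of free RNA, also held the 10 genes, at a summed 1162 CPM in Ctrl and 1927 in CL.

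The plot of levels gives all 10 genes in all 7 classes. Most of the 10 genes stood higher in CL than in Ctrl, by amounts that varied with the cell class, although no difference between classes was tested. Over all 10 genes, with no minimum of UMIs, the median log2 ratio was 2.67 in basal-like cells, where 8 of the 10 intervals lay above 0. It was 1.04 in secretory-lineage luminal-like, 0.98 in fibroblast-like, 1.12 in endothelial-like, 0.42 in macrophage-like and 0.39 in hormone-responsive luminal-like cells, with 8, 8, 4, 5 and 6 intervals above 0 and 1 below it in each luminal class. In T and NK-like cells the 9 genes with a value in both libraries had a median of 0.41. The median of all genes with at least 20 UMIs lay between -0.08 and 0.07 in the 7 classes.

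**Figure D1:**
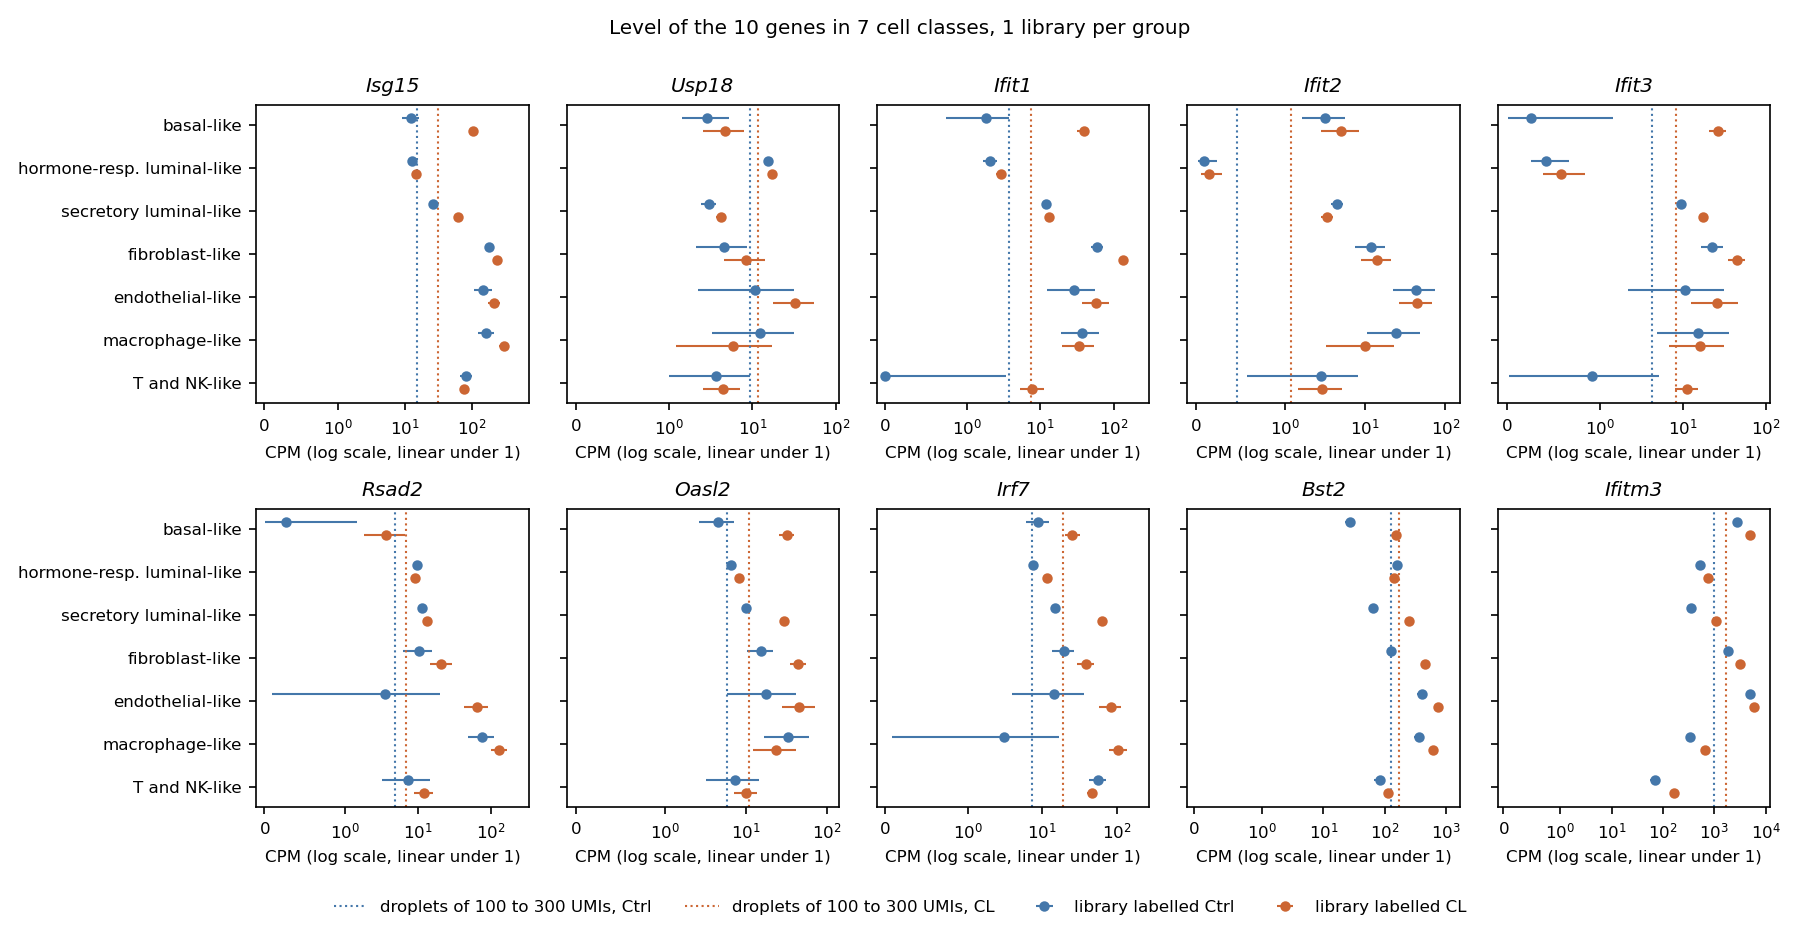
Level of each of the 10 genes (CPM, logarithmic axis that is linear under 1) in 7 cell classes, with points for the library labelled Ctrl (blue) and CL (orange), bars for the 95% Poisson interval and dotted lines for the droplets of 100 to 300 UMIs. Isg15 in basal-like cells stood at 12.4 CPM in Ctrl, under the droplet level of 15.3, and at 106 CPM in CL, above the droplet level of 31.1.

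The share of genes past a fixed fold was read against that of all genes with at least 20 UMIs in the class. At least 2-fold higher in CL were 6 of 9 members tested in basal-like cells, against 1.74% of all genes there. Secretory-lineage luminal-like cells had 5 of 10, against 1.66%. Fibroblast-like cells had 4 of 10, against 2.64%, and endothelial-like cells 4 of 8, against 6.09%. Of the T and NK-like cells' 9 members tested 3 were past it, against 4.67%, and of the macrophage-like cells' 7 only Irf7 was, against 6.34%. The minimum of 20 UMIs was taken over both libraries, and several of these genes reached it only through CL, where they were high. This holds for all 4 endothelial-like genes (Ifit1, Rsad2, Irf7 and Oasl2, with 1 to 8 UMIs in Ctrl) and for Irf7 in macrophage-like cells. It also holds for Ifit1 and Ifit3 in T and NK-like cells (0 and 1 UMIs in Ctrl). In basal-like cells it holds for Ifit1, Ifit3 and Oasl2 (7, 1 and 17 UMIs in Ctrl). Nothing is read from the counts of these classes, the basal-like one included. In hormone-responsive luminal-like cells 0 of 9 were past 2-fold, against 1.82% of all genes. No member that could be tested was 2-fold lower in CL in any of the 7 classes.

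Isg15 encodes a ubiquitin-like protein that is attached to other proteins, and Usp18 encodes the protease that removes it and also damps receptor signalling. Isg15 was 12.4 CPM in Ctrl and 106 in CL in basal-like cells, an 8.53-fold difference (log2 ratio 3.09, interval 2.65 to 3.57). Secretory-lineage luminal-like cells had 26.9 and 62.3 CPM (log2 ratio 1.21, 1.10 to 1.33). The order of the classes changed with this: basal-like and hormone-responsive cells had the lowest levels of Isg15 in Ctrl, with overlapping intervals, and in CL the basal-like level stood above both luminal classes. In hormone-responsive luminal-like cells it was 12.7 and 14.7 CPM, both under the droplet levels of 15.3 and 31.1 CPM.

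In Ctrl, Isg15 was highest in the stromal and myeloid classes. It stood at 184 CPM in fibroblast-like, 164 in macrophage-like and 150 in endothelial-like cells, 3 levels whose intervals overlap. In CL the same classes stood at 244, 305 and 216 CPM, with log2 ratios of 0.41, 0.89 and 0.53, the last with an interval from -0.01 to 1.09. The fibroblast-like value joins 3 unlike clusters, the largest of 179 and 182 cells with 115 and 129 CPM. One of 56 and 67 cells, led by Ccl2 and Col1a1, had 603 and 873 CPM. The smallest, of 19 and 22 cells and led by Ccl2 and Apod, had 111 CPM in CL. One endothelial-like cell of Ctrl held 25 of the 42 Isg15 UMIs of its class, and without the richest cells the endothelial-like levels were 62.6 and 205 CPM (log2 ratio 1.71, 0.95 to 2.56). The larger of the 2 endothelial-like clusters (35 and 49 cells) had 59.7 and 164 CPM, and the smaller held 19 and 10 cells. The T and NK-like level was 83.9 CPM in Ctrl and 76.0 in CL (log2 ratio -0.14, -0.49 to 0.21), but its 3 clusters took different shares of the class in each library. One of them (61 and 74 cells) had 80.8 and 141 CPM (log2 ratio 0.80, 0.15 to 1.48), and the other 2 had negative ratios with intervals that include 0.

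Usp18 had another distribution. Hormone-responsive luminal-like cells held 15.2 CPM of it in Ctrl and 17.3 in CL, above the droplets (9.25 and 11.8 CPM) and above basal-like cells (2.90 and 4.68 CPM) and secretory-lineage luminal-like cells (3.01 and 4.21 CPM). Its ratio between the libraries was small in all 3, with log2 values of 0.19 (0.04 to 0.34), 0.69 (-0.55 to 1.97) and 0.49 (0.11 to 0.87). The endothelial-like value, 10.7 CPM in Ctrl and 32.2 in CL, rested on 3 and 14 UMIs.

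The Ifit genes encode proteins that bind foreign RNA and block its translation. Basal-like cells showed the widest contrast for 2 of them: Ifit1 was 1.84 CPM in Ctrl and 38.7 in CL (log2 ratio 4.39, 3.31 to 5.74). Ifit3 was 1 UMI among 3799107 in Ctrl and 78 among 2994107 in CL (log2 ratio 6.63, 4.11 to 11.95). Ifit2, their neighbour, was 3.16 and 5.01 CPM in the same cells (log2 ratio 0.67, -0.53 to 1.89), so the 3 genes did not move by a like amount there. In fibroblast-like cells Ifit1 was 59.7 and 133 CPM (log2 ratio 1.15) and Ifit3 was 22.5 and 43.9 CPM (log2 ratio 0.97), whereas Ifit2 was 11.7 and 13.8 CPM. Ifit1 was 24.2 and 88.8 CPM in the largest fibroblast-like cluster (log2 ratio 1.88) and 275 and 394 CPM in that of 56 and 67 cells (0.52). The 22 CL cells of the smallest cluster held 0 CPM of it.

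In secretory-lineage luminal-like cells the Ifit ratios rested on a single cell of the library labelled Ctrl. Over all cells Ifit1 was 12.1 CPM in Ctrl and 13.2 in CL, Ifit2 was 4.45 and 3.33, and Ifit3 was 9.50 and 17.2. One Ctrl cell with 23854 UMIs held 115 UMIs of Ifit1, 36 of Ifit2, 161 of Ifit3, 129 of Rsad2 and 111 of Isg15, and it carried 21.5% of all UMIs of the 8 genes other than Bst2 and Ifitm3 in its class. Without the richest cell of each class and library, an alternative chosen after seeing the data, the log2 ratio of Ifit1 went from 0.13 to 0.67, that of Ifit2 from -0.42 to 0.03, that of Ifit3 from 0.86 to 2.01 and that of Rsad2 from 0.25 to 0.88. The interval of Ifit2, which lay below 0 with that cell, then ran from -0.35 to 0.42.

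Ifit2 was highest in endothelial-like cells, at 42.9 and 43.7 CPM (12 and 19 UMIs), where Ifit1 was 28.6 and 57.5 CPM (8 and 25 UMIs). Without the richest cells the endothelial-like log2 ratios were -1.44 for Ifit2 and 0.59 for Ifit1, both with intervals that include 0. Hormone-responsive luminal-like cells had 2.09 and 2.94 CPM of Ifit1 and under 1 CPM of both Ifit2 (0.0898 and 0.142) and Ifit3 (0.427 and 0.588), below the droplets in each case. T and NK-like cells held no UMI of Ifit1 among 1084054 in Ctrl, which allows up to 2.77 CPM at 3 counts, and 30 UMIs in CL, at least 2.82-fold higher. A single CL cell held 15 of these 30, and without it the bound fell to a log2 ratio of 0.49. In macrophage-like cells Ifit1 was 36.5 and 33.6 CPM and Ifit3 was 15.2 and 15.8 CPM, but the richest cell of each library held all 12 of the Ctrl and 16 of the 17 CL UMIs of Ifit1.

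Rsad2 encodes viperin, an antiviral enzyme of the endoplasmic reticulum, and Oasl2 a member of the oligoadenylate synthetase family. Rsad2 was highest in macrophage-like cells, with 76.0 CPM in Ctrl and 131 in CL (log2 ratio 0.78, 0.10 to 1.51). In endothelial-like cells it was 1 UMI in Ctrl and 28 in CL (3.57 and 64.4 CPM). Fibroblast-like cells had 10.2 and 21.1 CPM (log2 ratio 1.04), but 0.09 without the richest cell of CL, which held 17 Rsad2 UMIs. The luminal classes had log2 ratios of -0.10 (-0.29 to 0.10) in hormone-responsive and 0.25 (0.05 to 0.44) in secretory-lineage cells, the latter 0.88 without the rich Ctrl cell described above. Oasl2 was 4.47 and 32.1 CPM in basal-like and 15.3 and 44.5 CPM in fibroblast-like cells, with log2 ratios of 2.84 and 1.54 whose intervals lay above 0. For secretory-lineage luminal-like cells it was 2.99-fold higher in CL (log2 ratio 1.58, 1.40 to 1.77). In hormone-responsive cells Oasl2 was 6.62 and 8.28 CPM (log2 ratio 0.32, 0.10 to 0.54).

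Irf7 encodes the transcription factor that amplifies interferon production. It was 14.8 CPM in Ctrl and 64.6 in CL in secretory-lineage luminal-like cells (4.35-fold, log2 ratio 2.12, 1.98 to 2.27), the largest ratio of the 10 genes in that class. Macrophage-like cells held 1 UMI of Irf7 in Ctrl and 53 in CL (3.04 and 105 CPM, log2 ratio 5.11, 2.57 to 10.44), with a like number of cells and 329071 and 505341 UMIs in all. Basal-like cells had 8.69 and 25.4 CPM (log2 ratio 1.55), endothelial-like cells 14.3 and 82.9 CPM and fibroblast-like cells 19.4 and 38.5 CPM. The droplets held 7.26 CPM of Irf7 in Ctrl and 19.1 in CL (log2 ratio 1.40), so the basal-like levels and ratio stood little above theirs. T and NK-like cells led the order in Ctrl with 55.3 CPM and had 47.1 CPM in CL (log2 ratio -0.23, -0.66 to 0.21).

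Bst2 encodes tetherin, which holds budding virus at the cell surface, and Ifitm3 a membrane protein that blocks viral entry. Bst2 in basal-like cells was 27.1 CPM in Ctrl and 152 in CL (5.62-fold, log2 ratio 2.49, 2.18 to 2.81), in secretory-lineage luminal-like cells 65.3 and 247 CPM (log2 ratio 1.92, 1.85 to 1.99) and in fibroblast-like cells 126 and 447 CPM (log2 ratio 1.83, 1.62 to 2.04). The droplets held 129 CPM of Bst2 in Ctrl and 171 in CL. Basal-like cells lay below them in both libraries, and secretory-lineage and fibroblast-like cells in Ctrl only. Endothelial-like and macrophage-like cells, the highest classes in both libraries, had log2 ratios of 0.86 and 0.78. In hormone-responsive luminal-like cells Bst2 was 157 CPM in Ctrl and 143 in CL (log2 ratio -0.14, -0.18 to -0.09), a direction that was not kept with at most 5% mitochondrial UMIs (0.00). In Ctrl they had more Bst2 than the secretory-lineage cells, and in CL less.

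Ifitm3 gave most member UMIs in the epithelium, 97.8% of them in basal-like cells of Ctrl, so a sum over the 10 genes mostly follows Ifitm3. Endothelial-like cells had 5015 and 5809 CPM, basal-like cells 2771 and 5027, and fibroblast-like cells 1882 and 3213. The steepest contrast was in secretory-lineage luminal-like cells, with 351 CPM in Ctrl and 1081 in CL (3.08-fold, log2 ratio 1.62, 1.59 to 1.65). Hormone-responsive cells had 517 and 766 CPM (log2 ratio 0.57) and T and NK-like cells 71.0 and 163 CPM (log2 ratio 1.20, 0.85 to 1.56). Droplets held 982 CPM in Ctrl and 1660 in CL, above both luminal classes, macrophage-like cells (334 and 657 CPM) and T and NK-like cells in each library. Free RNA was estimated at 8.73% and 7.27% of the UMIs of T and NK-like cells.

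**Figure D2:**
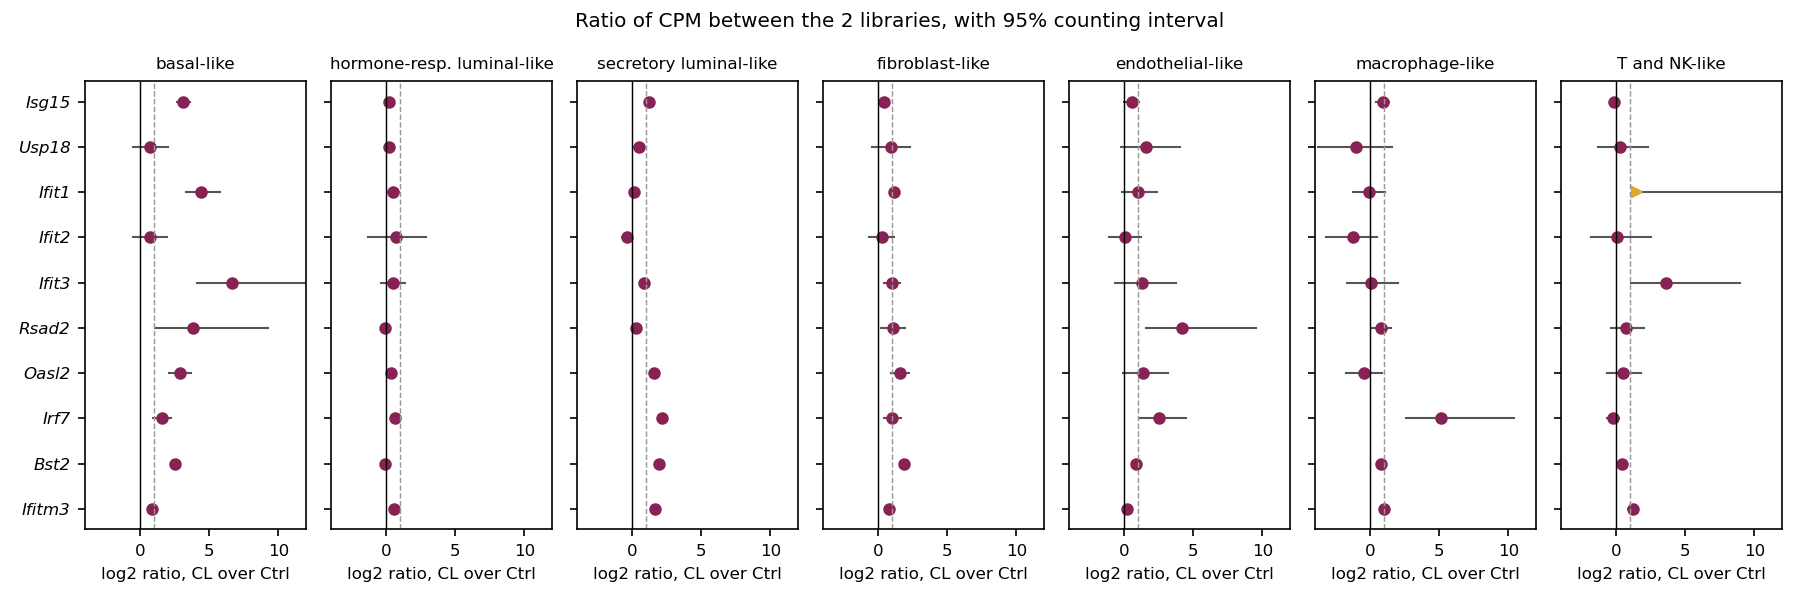
log2 ratio of CPM (CL over Ctrl) of each gene in each class, with the 95% counting interval, which is cut at the axis limit where it runs past it; the solid line marks no difference, the dashed line a 2-fold difference, and the triangle a lower bound against 0 UMIs. Basal-like points spread from 0.67 (Ifit2) to 6.63 (Ifit3), and hormone-responsive points from -0.14 (Bst2) to 0.66 (Ifit2).

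Summed over the 8 genes other than Bst2 and Ifitm3, the level in basal-like cells was 34.0 CPM in Ctrl and 241 in CL (log2 ratio 2.83, 2.56 to 3.11). Secretory-lineage luminal-like cells had 92.1 and 208 CPM (1.18, 1.12 to 1.24), and without the richest cells the log2 ratio was 1.51. The corresponding log2 ratios were 0.74 in fibroblast-like, 1.03 in endothelial-like, 0.79 in macrophage-like, 0.24 in hormone-responsive luminal-like and 0.09 (-0.16 to 0.34) in T and NK-like cells. The droplets themselves had 51.1 and 96.8 CPM, a log2 ratio of 0.92. Free RNA was estimated, from markers of other classes, at 3.87% to 11.2% of the UMIs of a class. Macrophage markers within the basal-like class summed to 11.1 CPM in Ctrl and 23.7 in CL, and T and NK markers to 35.8 and 21.4 CPM. In the secretory-lineage class the macrophage markers summed to 22.3 and 24.8 CPM. What part such cells had in the ratios was not tested. Subtracting the estimated free RNA turned no direction among the ratios it could be computed for, and left Bst2 at a log2 ratio of 3.22 in basal-like cells and Bst2 and Ifitm3 at 2.06 and 1.79 in secretory-lineage cells. It gave no value for Ifit3 and Rsad2 in basal-like cells, where Ctrl held 1 UMI of each.

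The 2 luminal classes were also split into their clusters. In the secretory-lineage class Isg15, Irf7, Bst2, Oasl2 and Ifitm3 were higher in CL in 5 of 5 clusters, each with an interval above 0. The cluster ratios of Irf7 lay between 1.72 and 2.22 on the log2 scale, and those of Bst2 between 1.49 and 2.26. Ifit1 and Rsad2 were higher in 3 clusters and lower in 2, those led by Plet1, Csn3 and Csf3 and by Csn3, Cck and Wfdc18, each with an interval on its side of 0. In the former the rich Ctrl cell held 115 of 147 Ifit1 and 129 of 166 Rsad2 UMIs of Ctrl, so the lower value there rests on it. In the hormone-responsive class no cluster had Bst2 with an interval below 0, and 1 had it above (log2 ratio 0.47), although the class as a whole was lower in CL. Irf7 and Ifitm3 were higher in 5 of 5 hormone-responsive clusters, with 3 and 4 intervals above 0. Ifit1 in the cluster led by Gpx3 had 33 UMIs in 891 Ctrl cells and 36 in 59 CL cells (log2 ratio 4.19).

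**Figure D3:**
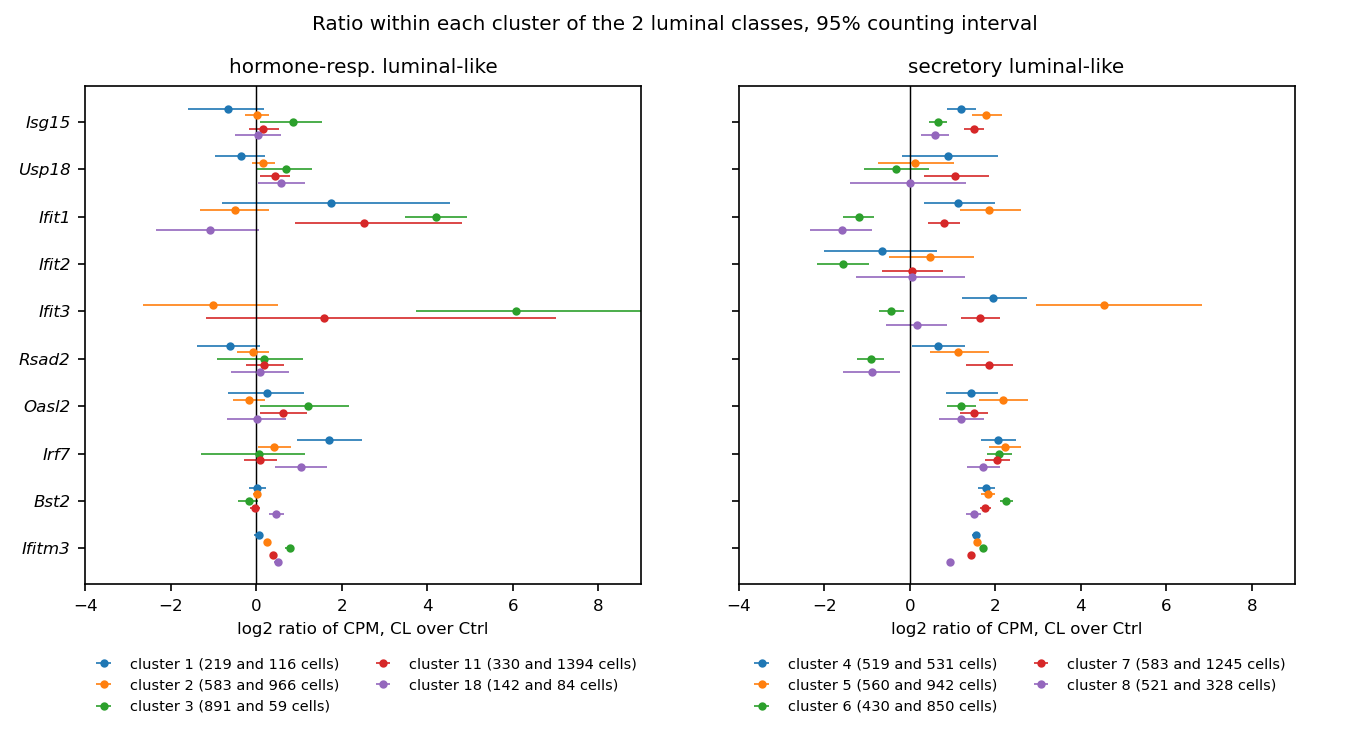
log2 ratio of CPM (CL over Ctrl) of the 10 genes within each of the 5 clusters of the hormone-responsive (left) and secretory-lineage (right) luminal-like classes, with 95% counting intervals; the legend gives cells in Ctrl and CL (cluster 3 is led by Gpx3, cluster 11 by Fgb, cluster 6 by Plet1 and Csf3), pairs with 3 or fewer UMIs in each library are left out, and an interval that runs past the axis is cut there. Irf7 and Bst2 of the secretory-lineage clusters all lie above 1.4, whereas Ifit1 lies on both sides of 0.

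Per cell, the question was whether many cells or few carried these genes. Each cell was thinned to 2000 UMIs and counted if it held UMIs of at least 3 of the 10 genes. The share in basal-like cells was 1.00% in Ctrl (4 of 399 cells, exact binomial interval 0.274% to 2.55%) and 11.3% in CL (45 of 400, 8.33% to 14.8%). In secretory-lineage luminal-like cells it was 1.41% (0.990% to 1.95%) and 12.8% (11.8% to 13.9%). Before thinning these shares were 6.62% and 22.3% in basal-like and 20.9% and 51.6% in secretory-lineage cells. In hormone-responsive luminal-like cells the thinned share was 1.66% and 2.83%, but its direction turned when cells were thinned to 1000 UMIs (log2 ratio -0.48 in place of 0.77) or each gene needed 2 UMIs (-1.87). The turned values rested on 16 cells in Ctrl and 14 in CL, and on 3 and 1, with intervals that include 0. The T and NK-like share was 2.58% and 2.77%, and it turned too at 1000 UMIs (log2 ratio -0.79 in place of 0.10), on 2 and 4 cells. Fibroblast-like cells had 12.1% and 24.3%, endothelial-like cells 9 of 45 and 25 of 51 cells, and macrophage-like cells 7.89% and 23.8%, the last with overlapping intervals. Ifitm3 and Bst2 met much of this rule. The share of cells with at least 2 of the 8 other genes was 0.752% in Ctrl and 5.25% in CL in basal-like cells, and 1.02% and 6.26% in secretory-lineage cells. Thinning left out 9 of 408 and 44 of 444 basal-like cells.

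**Figure D4:**
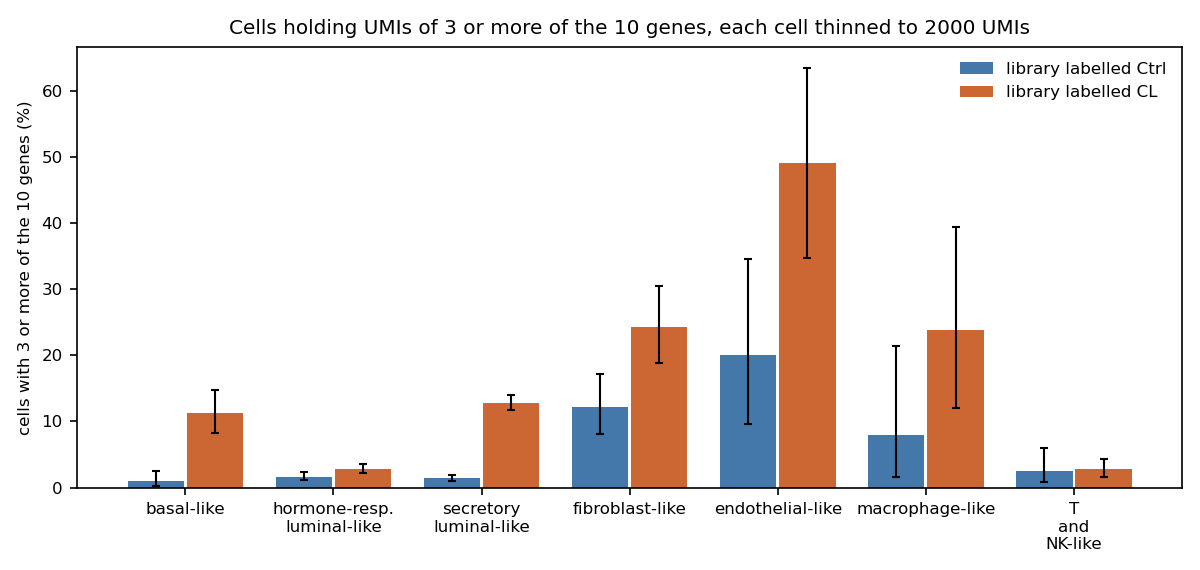
Share of cells (percent) with UMIs of at least 3 of the 10 genes after each cell was thinned to 2000 UMIs, by class and library, with bars for exact 95% binomial intervals. Basal-like and secretory-lineage luminal-like cells stood at 1.00% and 1.41% in Ctrl and at 11.3% and 12.8% in CL, whereas T and NK-like cells stood at 2.58% and 2.77%.

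The UMIs of the 8 genes other than Bst2 and Ifitm3 were spread unevenly over cells, by an amount that varied with the class. No value expected from sparse counts alone was computed. In basal-like cells of CL the 10% of cells richest in them held 78.0% of these UMIs and 15.8% of all UMIs, and 34.5% of the cells held any. In secretory-lineage luminal-like cells the corresponding share of the richest 10% was 75.4% in Ctrl and 54.3% in CL. Their cells with any such UMI went from 33.0% to 59.7%. In endothelial-like and hormone-responsive cells of CL the richest 10% held 43.3% and 45.0%, and 72.9% and 56.0% of the cells held any. In thinned secretory-lineage cells of CL, 39.5% of the cells with an Isg15 UMI held a UMI of the other 7 genes, against 18.3% of the cells without one. In CL these shares were 57.8% and 15.8% in fibroblast-like and 34.6% and 8.05% in basal-like cells. They were close in T and NK-like cells (17.9% and 17.3%) and in hormone-responsive cells (11.4% and 9.33%), with overlapping intervals.

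Interferon ligands were looked for in every cell. Ifnb1, the interferon beta gene, had 84 UMIs among retained cells of Ctrl, of which 45 stood in 1 macrophage-like cell and 36 in 1 secretory-lineage luminal-like cell. The latter is the Ctrl cell described above with 592 UMIs of the 8 genes, and the former held 44 UMIs of them among 8572. CL had 1 UMI of Ifnb1, in a fibroblast-like cell with 57 UMIs of the 8 genes. Ifna1, Ifna4, Ifna5, Ifna12 and Ifne had 0 UMIs in both libraries, Ifna2 had 3 in CL, 2 of them in the T and NK-like cell richest in the 8 genes, and Ifnk had 2 and 3.

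The type III ligands Ifnl2 and Ifnl3 were found in hormone-responsive luminal-like cells, at 48 and 129 UMIs in Ctrl and 18 and 57 in CL (log2 ratios -1.56 and -1.32). In these cells Ifnl2 was level with the droplets (1.08 and 0.365 CPM against 0.998 and 0.360). For Ifnl3 the values were 2.90 and 1.16 CPM against 1.54 and 0.541. A UMI of Ifnl3 was found in 2.68% of these cells in Ctrl and 1.18% in CL, and in 0.0765% and 0.0513% of secretory-lineage cells. Most Ifnl2 UMIs of CL (67 of 87) lay in an unnamed cluster with mixed luminal markers, where 1 cell held 64 of them and 142 of the 8 genes among 65205. Interferon gamma, Ifng, was in T and NK-like cells, at 188 CPM in Ctrl and 156 in CL, and in 31.5% and 33.2% of those cells. Because CL held 735 such cells and Ctrl 213, Ifng over all cells was 2.47 CPM in Ctrl and 5.26 in CL, and the droplets had 1.09 and 5.59 CPM.

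None of the 6 receptor genes tested was 2-fold higher in basal-like, hormone-responsive or secretory-lineage cells, where 1.74%, 1.82% and 1.66% of all genes were, with medians of -0.16, 0.04 and -0.08 on the log2 scale. Ifnar1 was 12.6 and 13.4 CPM in basal-like cells and 16.7 and 15.3 CPM in secretory-lineage cells. Ifnar2 was 65.0 and 64.1 CPM in the former and 76.7 and 101 CPM in the latter. Its log2 ratio in the latter, 0.40, had an interval from 0.32 to 0.47. Of the type II receptor genes, Ifngr1 was 36.3 and 22.4 CPM (log2 ratio -0.70, -1.14 to -0.27) and Ifngr2 27.6 and 20.4 CPM in basal-like cells. The type III receptor gene Ifnlr1 had log2 ratios of 0.15 in hormone-responsive and -0.55 (-0.87 to -0.22) in secretory-lineage cells. Those of Il10rb, its partner, were 0.06 and -0.36.

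Among the transducers, which carry the signal from the receptor to the nucleus, Stat2 and Irf9 encode parts of the ISRE-binding factor. Stat2 had log2 ratios of 1.29, 0.87, 0.55 and 0.35 and Irf9 of 0.95, 0.40, 0.97 and 0.06 in basal-like, secretory-lineage, fibroblast-like and hormone-responsive cells. The kinase genes Jak1, Jak2 and Tyk2 lay between -0.28 and 0.00 in basal-like cells, and Irf3, which acts before interferon is made, was at 0.20. Irf1 and Irf8 were at 0.65 and 1.34 there. The Irf8 value (interval 0.29 to 2.48) rested on 12 UMIs in Ctrl and 24 in CL. Its levels, 3.16 and 8.02 CPM, lay below the droplets in both libraries (15.8 and 26.7 CPM).

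Other genes of the response were counted in the same way, and some past 2-fold too reached 20 UMIs only through CL. These effectors were Ifi44, Lgals3bp, Rtp4 and Xaf1 in basal-like and Slfn5 and Phf11b in secretory-lineage cells. In fibroblast-like cells they were Ddx60 and Slfn8, and in hormone-responsive cells Ifi47 and Ifitm1. The counts and medians of effectors that follow are therefore given without a reading. Of the other effectors 14 of 23 tested were at least 2-fold higher in basal-like cells (median log2 ratio 1.10, against -0.08 for all genes), 12 of 35 in secretory-lineage cells (0.76 against -0.04), 6 of 28 in fibroblast-like cells (0.60 against -0.03) and 3 of 36 in hormone-responsive cells (0.18 against -0.03). The share of all genes past 2-fold was 1.74%, 1.66%, 2.64% and 1.82% in these classes. In basal-like cells Ifi44 (log2 ratio 4.20), Ifi47 (3.49) and Lgals3bp (2.82) were highest and Ifitm2 (0.30) and Adar (0.17) lowest. Of the highest, Lgals3bp lay below the droplets in both libraries (3.16 and 22.4 CPM against 14.5 and 25.7). In secretory-lineage cells Ifi47 (3.69), Ifi27l2a (2.75) and Oas1g (1.85) were highest, and Oasl1 (-1.02) was lowest. Fibroblast-like cells had Ifi47 (2.05), Rtp4 (1.48) and Ddx60 (1.48) at the top and Ifitm1 (0.06) and Isg20 (0.05) at the bottom. In hormone-responsive cells Ifi47 (1.68), Ifitm1 (1.54) and Ifi27l2a (1.40) led from levels of 0.292, 0.427 and 1.30 CPM in Ctrl. These 3 lay below the droplets in both libraries (2.81, 9.43 and 11.2 CPM in Ctrl and 9.28, 20.4 and 43.9 in CL). Oas1g (-0.99) and Ifit3b (-1.52) were lowest.

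Genes that attach ISG15 to proteins were past 2-fold in 3 of 4 cases in secretory-lineage cells, against 1.66% of all genes: the E2 enzyme gene Ube2l6 was 3.98 and 12.4 CPM (log2 ratio 1.64), the E1 gene Uba7 3.34 and 8.40 (1.33) and the ligase gene Herc6 4.18 and 8.40 (1.01), whereas Trim25 was 27.9 and 26.0. In basal-like cells only Ube2l6 was (3.42 and 13.4 CPM). With 13 UMIs in Ctrl and 40 in CL, Ube2l6 reached the minimum of UMIs there only through CL. Nothing is therefore read from the basal-like count. Of the nucleic acid sensors Zbp1 led in basal-like (5.00 and 34.4 CPM), secretory-lineage (12.1 and 61.2 CPM) and fibroblast-like cells (16.9 and 57.2 CPM). The droplets held 8.80 CPM of Zbp1 in Ctrl and 32.9 in CL. Basal-like cells lay below them in Ctrl and little above them in CL, and secretory-lineage and fibroblast-like cells lay above them in both. With 19 UMIs in Ctrl and 103 in CL, basal-like Zbp1 also reached the minimum of UMIs only through CL, so nothing is read from its lead there. The RNA sensor genes Ifih1 and Ddx58 had log2 ratios of 1.26 and 0.60 in basal-like and -0.08 and -0.09 in secretory-lineage cells. Of the inhibitors Samhd1, which depletes nucleotides, was past 2-fold in basal-like (1.58), secretory-lineage (1.13) and fibroblast-like cells (1.36), and Socs1 and Socs3, which block JAK kinases, were at 0.24 and 0.14, 0.26 and -0.13, and -0.24 and -0.01.

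Genes known mainly as targets of interferon gamma were also counted with at least 20 UMIs over both libraries. Some past 2-fold reached this only through CL. These were Cxcl9 in basal-like, Ciita, Gbp4 and Nos2 in secretory-lineage and H2-Eb1, Cd74, Cxcl9 and Gbp4 in fibroblast-like cells. So did Cxcl9, Cxcl10, Gbp4, Irgm1, Igtp and Ido1 in endothelial-like cells and Cxcl9 and Gbp2 in macrophage-like cells. In T and NK-like cells H2-Aa, H2-Ab1, H2-Eb1 and Iigp1 did. Nothing is therefore read from the counts and medians of these classes. At least 2-fold higher were 10 of 12 tested in basal-like cells (median 3.78), 11 of 15 in secretory-lineage cells (3.49), 9 of 13 in fibroblast-like cells (1.39), 9 of 13 in endothelial-like cells (1.78), 6 of 13 in T and NK-like cells (0.08), 3 of 12 in hormone-responsive cells (0.65) and 2 of 9 in macrophage-like cells (-0.08). In the same order 1.74%, 1.66%, 2.64%, 6.09%, 4.67%, 1.82% and 6.34% of all genes were. The 6 genes in T and NK-like cells (H2-Aa, H2-Ab1, H2-Eb1, Cd74, Gbp2 and Iigp1) lay below the droplets in both libraries. H2-Aa did so with 3.69 and 19.0 CPM against 62.5 and 147. The 3 genes in hormone-responsive cells (H2-Ab1, Cd74 and Gbp2) did as well, Gbp2 with 28.6 and 78.1 CPM against 36.0 and 285. So did H2-Ab1, H2-Eb1 and Cd74 in fibroblast-like, H2-Aa in basal-like and Gbp2 in macrophage-like cells. Iigp1 (6.05 and 144 CPM), Cxcl10 (10.8 and 213) and Gbp2 (36.9 and 654) led in basal-like cells. In secretory-lineage cells Gbp2 (21.6 and 466), H2-Aa (4.18 and 83.6) and Cd74 (12.6 and 247) led. Of these, H2-Aa lay below the droplets in both libraries, as H2-Ab1 and H2-Eb1 also did there. The droplets held 111 and 242 CPM of Cd74. In fibroblast-like cells Cxcl9 was 4.09 and 143 CPM. Ido1 was lower in CL in hormone-responsive cells, at 625 and 273 CPM. Targets of the 2 kinds of interferon overlap, and Irf1 stands both here and among the transducers.

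**Figure D5:**
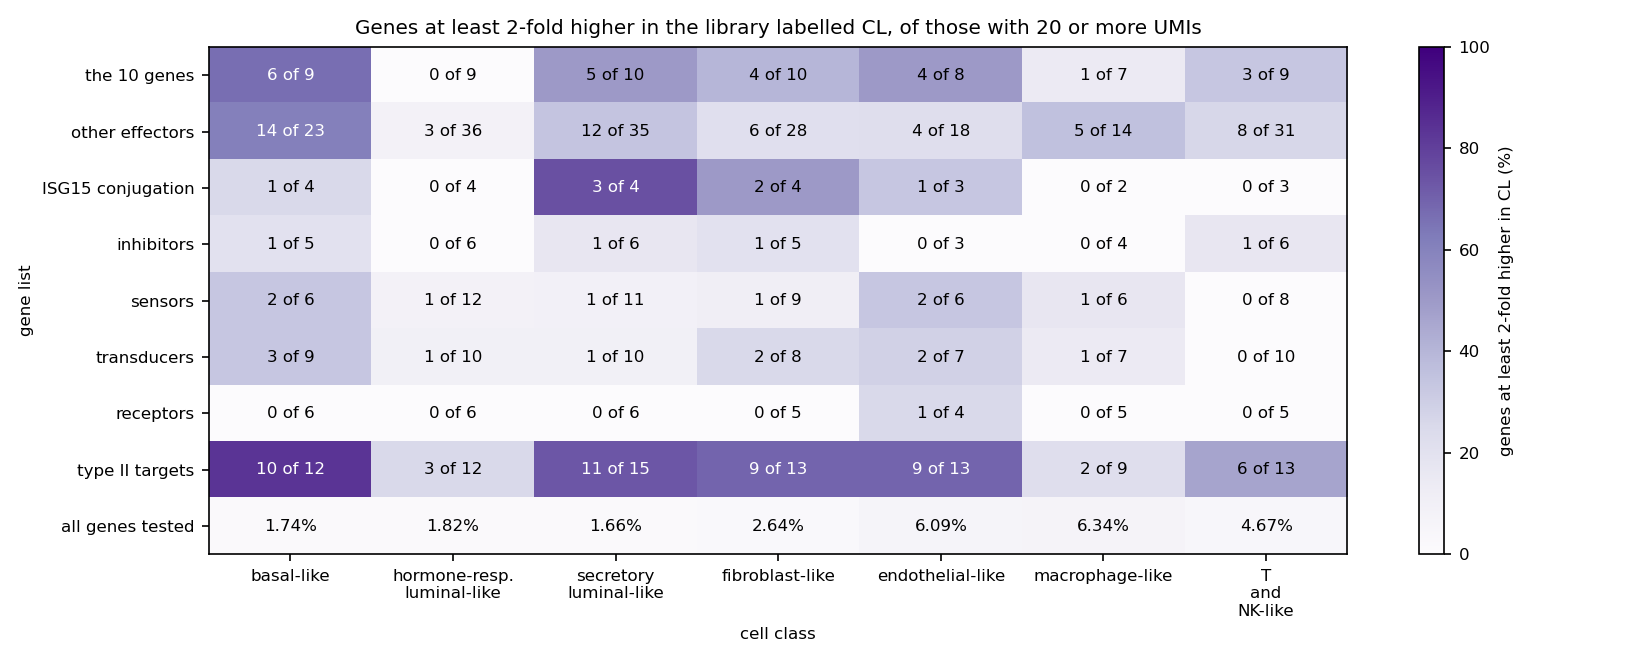
Number of genes at least 2-fold higher in CL of those with at least 20 UMIs, by gene list (rows) and cell class (columns), with shading for their percentage and the same percentage over all genes in the last row. The 10 genes have 6 of 9 in basal-like and 0 of 9 in hormone-responsive luminal-like cells, and the type II targets 10 of 12 and 3 of 12. In basal-like cells some of the genes past 2-fold reached 20 UMIs only through CL, so nothing is read from those counts.

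Patterns over the 14 class and library pairs were compared as a description, since these points share 2 libraries and their depth. Pearson correlations of log2 CPM with the mean standardized profile of the 10 genes were taken over 8394 genes. The 10 genes in no interferon list most like the profile were Rnf213 (0.91), Gbp3 (0.90), Cfb (0.83), Slco2b1, Pvr, Tapbp, Cyth3, Cd36, Dab2 and Plxnd1 (0.79). Of the 50 most like, 17 were in the interferon lists, which held 81 of the 8394 genes, and 6 of these 17 were among the 10 genes that make the profile. With a pseudocount of 10 CPM the 17 became 13, and 6 of the 10 unlisted genes were the same. Gbp3, a guanylate-binding protein gene, was 2.11 and 24.7 CPM in basal-like and 5.38 and 52.2 CPM in secretory-lineage cells, whereas Cd36 and Dab2 were high in endothelial-like and macrophage-like cells of both libraries.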

How the data were processed

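Cells of mammary glands from control mice and mice given clodronate liposomes made 1 droplet library each (10x Genomics, 3′ ends). The authors deposited raw UMI counts, unfiltered and not normalized, as matrices of 32285 genes by 6794880 barcodes. The file headers name Cell Ranger 4, whereas the submitters' processing notes name Cell Ranger 2.1.1 and mm10. The deposited barcode lists (7217 and 10555 entries) did not index the columns, so as many barcodes with most UMIs were taken as cells, down to 615 and 648 UMIs. Cells with at least 500 genes and at most 15% mitochondrial UMIs were kept. Scrublet in scanpy 1.11.5 marked 360 Ctrl cells as doublets but 0 in CL, so the Ctrl threshold was used for both (509 in CL). Clustering used 1965 variable genes without any gene of the interferon lists, 30 components, 15 neighbours and Leiden resolution 1, which gave 25 clusters. A cluster was named, as "-like", if at least 3 markers were detected in 10% of its cells and 2-fold above the median cluster. It stayed unnamed (3 did) if another class scored 60% of the first or led its top 10 genes. That scoring was set after seeing the data, and names differ from the study's.

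UMIs were summed over the cells of a class in a library and set against their total (CPM). Intervals were exact Poisson for levels, conditional binomial for ratios and Clopper-Pearson for shares, at 95%. A group at 0 was set to 3 counts for a bound. Ratios were tested on simulated data. The 10 genes, the interferon lists and the alternatives were chosen with earlier results of these data known. Named were all 10 genes, all ligands, receptors and transducers with at least 20 UMIs (in the main classes), the 3 highest and 2 lowest ratios of each other list, and the 10 unlisted genes most like the 10. Only a part of the genes so named is printed, and some results are not reported here. Of 123 listed genes 116 were in the tables. With 1 library per group no differential test and no p-value is given. Alternatives covered filters, doublets, clustering, naming, scaling (TMM, edgeR 4.0.16), free RNA and thresholds.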

Additional observations from a re-analysis of the deposited data

Results flagged for a closer look

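Bst2 in hormone-responsive luminal-like cells was lower in the library labelled CL (log2 ratio -0.14, interval -0.18 to -0.09), whereas in the 6 other classes its ratio lay above 0. The difference between classes was not tested, since each class has 1 library per group. Within the 5 clusters of the class 0 intervals lay below 0, and the 2 libraries filled these clusters in different proportions. With at most 5% mitochondrial UMIs the log2 ratio was 0.00.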

How the results depend on the processing

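Of 892 ratios of single genes recomputed under the alternatives, 856 kept their direction and 36 did not. Of those past 2-fold, Ifit2 in macrophage-like cells (-1.30 on the log2 scale) reversed, to 0.70 with no mitochondrial limit and to 0.37 without the richest cell of each class and library. The cause of these and the following shifts was not tested.

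The log2 ratio of the summed 10 genes moved as follows. The doublet threshold was set anew for each cell filter. With the minimum of 200 genes 0 doublets were removed in both libraries. That setting therefore changed the gene minimum and the doublet removal together, and its shifts cannot be put down to the minimum alone. In basal-like cells (0.94) it was 0.79 with a minimum of 200 genes, with doublets kept and as the mean CPM of cells, 1.03 with at most 5% mitochondrial UMIs, 1.01 with TMM scaling and 2.83 without Ifitm3 and Bst2. In hormone-responsive cells (0.42) these gave 0.53 with 5% mitochondrial UMIs, 0.45 with TMM and 0.24 without Ifitm3 and Bst2, and the sum was 0.54 without Bst2 and 0.46 with each cell named alone. In secretory-lineage cells (1.59) it was 1.64 with each cell named alone and with TMM, 1.54 without Bst2, 1.18 without Ifitm3 and Bst2, 1.73 with free RNA subtracted and 1.65 without the richest cells. In fibroblast-like cells (0.85) it was 0.79 with 200 genes and with doublets kept, 0.77 without Bst2, 0.74 without Ifitm3 and Bst2 and 0.73 as the mean of cells. In endothelial-like cells (0.32) it was 0.17 and 0.11 with 1000 and 200 genes, 0.020 and 0.15 with 5% and no mitochondrial limit, 0.13 with doublets kept, 0.18 with all genes in the clustering, -0.13 with each cell named alone, which turned its direction, and 1.03 without Ifitm3 and Bst2. In macrophage-like cells (0.85) it was 1.07 with 1000 genes, 1.28 at Leiden resolution 2, 1.77 with each cell named alone and 0.64 as the mean of cells, and resolution 0.5 gave no such class. In T and NK-like cells (0.49) it was 1.02 with 200 genes and with doublets kept, and 0.087 without Ifitm3 and Bst2.

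The log2 ratio of the share of cells with 3 or more of the genes was 0.77 in hormone-responsive cells, but -0.48 when thinned to 1000 UMIs and -1.87 when each gene needed 2 UMIs. Both negative values had intervals that include 0 (-1.51 to 0.55 and -5.14 to 1.39). In secretory-lineage cells (3.18) it was 2.52 at 4000 UMIs and 2.34 with 2 UMIs per gene. In basal-like cells (3.49) it was 2.65 at 4000 UMIs, in endothelial-like cells (1.29) 0.57 at 4000 UMIs and in macrophage-like cells (1.59) 0.48 and 0.34 at 1000 and 4000 UMIs. For T and NK-like cells (0.10) thinning gave -0.79 at 1000 and 0.49 at 4000 UMIs, all with intervals that include 0, and 2 UMIs per gene gave no value.

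Genes at least 2-fold higher, with at least 5 UMIs, with at least 100 UMIs and at a ratio of 1.5, numbered 547, 57 and 497 in basal-like, 760, 66 and 703 in hormone-responsive, 660, 97 and 500 in secretory-lineage, 767, 61 and 738 in fibroblast-like, 1035, 36 and 729 in endothelial-like, 1028, 29 and 763 in macrophage-like and 769, 48 and 1094 in T and NK-like cells. Past a ratio of 1.5 were 1 of 9 members tested in hormone-responsive cells (4.78% of all genes), 8 of 10 in fibroblast-like (7.87%) and 5 of 7 in macrophage-like cells (18.2%). With 100 UMIs, 0 of 3 members tested in endothelial-like, 0 of 3 in macrophage-like and 1 of 4 in T and NK-like cells passed 2-fold (2.97%, 2.58% and 0.912% of all genes). The sum without Ifitm3 and Bst2 and the removal of the richest cells were chosen after seeing the data. No paired analysis was possible because each group had 1 library. Depth limits the endothelial-like and macrophage-like ratios most, with 54 and 40 cells in Ctrl.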

Other observations

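The 3 clusters left unnamed also held the genes. A cluster with pericyte and basal markers (37 cells in Ctrl and 44 in CL) had 287 CPM of Isg15 in Ctrl and 587 in CL (log2 ratio 1.03, 0.64 to 1.44), and its sum of the 8 genes other than Bst2 and Ifitm3 was 343 and 898 CPM. A cluster with markers of both luminal lineages (131 and 485 cells) had 22.1 and 36.3 CPM of Isg15 and 73.8 and 138 CPM of the 8 genes. The cluster led by Lyz2, S100a9 and S100a8, whose cells were 19 in Ctrl and 211 in CL, had 141 and 255 CPM of the 8 genes (log2 ratio 0.85, 0.14 to 1.67), on 16 and 425 UMIs.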
